A study of Homo sapiens with 5 samples.

Results

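The 10 genes described here, CCN1, CCN2, ANKRD1, AMOTL2, EDN1, DKK1, THBS1, F3, AXL and CRIM1, are widely used as target genes of the transcriptional co-activator YAP and its DNA-binding TEAD partners. They were chosen by name and found by symbol among the 36601 genes of the deposited count tables, where each had 1 entry. The values come from single-cell RNA sequencing of MDA-MB-468, an established human cell line from a triple-negative breast cancer, given PF0517515, an inhibitor of acetyl-CoA carboxylase. That enzyme makes malonyl-CoA, the building block of fatty acid synthesis. There were 5 libraries: untreated cells at 0 h, cells given the inhibitor for 6 h, cells left untreated for 72 h, cells given the inhibitor for 72 h, and recovery cells collected after a 72 h treatment. The labels gave no dose, vehicle, cell density or length of recovery. There was no untreated library at 6 h, and none was labelled as the untreated match of the recovery cells. Each condition was 1 library of 1 line, so no difference between conditions could be tested. Every interval below is an exact 95% interval that covers counting error only, not the variation between cultures.

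After filtering, the libraries held between 1927 and 3705 cells and between 85376888 and 114350566 unique molecular identifiers (UMIs), each of which stands for 1 captured RNA molecule. The median UMI count per cell ran from 26540 in recovery cells to 41573 in cells given the inhibitor for 72 h. Levels are UMIs per 1000000 UMIs of a library (CPM). A gene was counted as higher or lower by 2-fold only if it reached 10 CPM in at least 1 of the libraries compared. All 6 epithelial markers (EPCAM, CDH1, KRT8, KRT18, KRT19 and CLDN4) were above 10 CPM in every library. None of the 15 markers of fibroblasts, endothelial cells and leukocytes reached 10 CPM in any library. Their summed levels were 2.70 to 9.07 CPM for fibroblast markers, of which 3 or 4 of 6 were at 0, 1.22 to 4.01 CPM for endothelial markers and 3.13 to 7.54 CPM for leukocyte markers. Pairs of libraries had 0 to 7 cell barcodes in common.

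YAP and its relative TAZ, the product of WWTR1, carry no DNA-binding domain of their own and reach promoters and enhancers through TEAD proteins. The Hippo kinases phosphorylate both co-activators, which are then held in the cytoplasm or degraded, and crowding of cells and loss of actin tension favour that state. Among the best-known targets are secreted matrix proteins, such as those of CCN1 and CCN2, and AMOTL2, whose product binds YAP and restrains it. In breast cancer cells YAP and TAZ are known for promoting growth and migration.

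The TEAD family recognises the letters GGAATG, which read CATTCC on the opposite strand, and the CCN2 promoter is the textbook case of repeated copies. Promoter sequences were taken from RefSeq (GRCh38.p14) for 8 of the 10 genes, with 12 promoters in all. CCN1 and CRIM1 had no entry. Within the 250 bases before the start of transcription, the TEAD letters were present in 7 of the 12 promoters, belonging to 7 genes, against 11.9% of 34943 RefSeq promoters of the same length. CCN2 held 3 copies, beginning 169, 104 and 95 bases before the start, a number found in 0.0830% of all promoters. ANKRD1 held 2 copies, 220 and 128 bases before the start, and 0.942% of all promoters held 2 or more. The GENCODE position of ANKRD1, given further below, reaches past the RefSeq start used here. By that position the copy at 128 lies inside the gene, and the window printed below holds only the copy at 220. DKK1 and THBS1 held 1 each, and AMOTL2, EDN1 and AXL held 1 each in a second annotated promoter. F3 held none, but it was the only 1 of the 8 with the AP-1 letters TGAGTCA or their opposite strand TGACTCA, which were in 4.22% of all promoters. The windows below are shown because they hold those letters in genes whose levels moved in different directions. They are written 5′ to 3′ on the strand of the gene, with capitals marking the TEAD letters, or the AP-1 letters in F3. The CCN2 window is chr6:131951423-131951572 on the minus strand, the ANKRD1 window chr10:90921277-90921337 on the minus strand, the DKK1 window chr10:52314201-52314260 on the plus strand, the THBS1 window chr15:39580999-39581058 on the plus strand and the F3 window chr1:94541940-94541999 on the minus strand.
CCN2: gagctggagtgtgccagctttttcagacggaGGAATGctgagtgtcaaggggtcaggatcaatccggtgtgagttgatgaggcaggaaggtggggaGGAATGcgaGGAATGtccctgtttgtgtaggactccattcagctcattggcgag
ANKRD1: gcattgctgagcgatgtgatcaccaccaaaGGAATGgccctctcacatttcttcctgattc
DKK1: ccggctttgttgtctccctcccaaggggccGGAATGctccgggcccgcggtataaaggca
THBS1: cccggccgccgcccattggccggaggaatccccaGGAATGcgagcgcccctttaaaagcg
F3: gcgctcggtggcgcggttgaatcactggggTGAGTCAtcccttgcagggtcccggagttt
The copies nearest the start in CCN2 lie 3 bases apart, in the same orientation. A match of letters is a description of the sequence and does not show that a factor binds there. No CArG box, the site of serum response factor, was found in the 12 promoters, against 1.16% of all promoters. The letters TATAAA on the strand of the gene were found in CCN2, DKK1 and 1 of the EDN1 promoters, against 6.82% of all promoters.

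All 10 are protein-coding genes, with positions given in the GRCh38 build from GENCODE 29, matched by Ensembl identifier. CCN1 (ENSG00000142871) is at chr1:85580761-85583962, CCN2 (ENSG00000118523) at chr6:131948176-131951373, ANKRD1 (ENSG00000148677) at chr10:90912096-90921276 and EDN1 (ENSG00000078401) at chr6:12290363-12297194. DKK1 (ENSG00000107984) is at chr10:52314296-52318042, F3 (ENSG00000117525) at chr1:94529225-94541800, AXL (ENSG00000167601) at chr19:41219203-41261766 and CRIM1 (ENSG00000150938) at chr2:36355926-36551135. AMOTL2 (ENSG00000114019), at chr3:134355874-134375479, overlaps the pseudogene RPL39P5 and the microRNA gene MIR6827 on its own strand. THBS1 (ENSG00000137801), at chr15:39581079-39599466, overlaps the non-coding gene AC037198.1 on its own strand. The counts of AMOTL2 and THBS1 are uncertain to the extent that reads from those overlaps were assigned to either gene.

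The secreted matrix genes fell into separate patterns across the 5 libraries. CCN1 encodes a matricellular protein that signals through integrins. Its level was 87.5 CPM in untreated cells at 0 h, 108.9 at 6 h of inhibitor, 91.7 in untreated cells at 72 h, 51.4 at 72 h of inhibitor and 29.5 in recovery. CCN1 was thus highest at 6 h and lowest in recovery, a span of 3.69-fold. CCN2 encodes the related connective tissue growth factor. In the same order of libraries CCN2 was at 45.3, 34.0, 46.2, 4.78 and 4.36 CPM. Its level was the same in both untreated libraries within counting error, and it was far lower in the last pair, which did not differ from each other beyond counting error. THBS1 encodes thrombospondin, a large matrix glycoprotein. Its levels were 15.1, 27.6, 7.1, 7.0 and 1.95 CPM, highest at 6 h and equal within counting error in both 72 h libraries.

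The secreted ligands also differed from each other. EDN1 encodes the vasoconstrictor peptide endothelin. Its levels were 87.8 CPM at 0 h, 81.4 at 6 h of inhibitor, 82.7 in untreated cells at 72 h, 22.5 at 72 h of inhibitor and 12.6 in recovery. EDN1 therefore split the libraries into a group of 3 with similar levels and a lower pair. DKK1 encodes a secreted antagonist of Wnt signalling. It was at 23.5, 42.2, 2.07, 2.59 and 0.19 CPM, the last value from 19 UMIs in 3537 cells. DKK1 was low in every library collected at 72 h or after it, with or without the inhibitor, and its span of 227-fold from 6 h to recovery was the widest of the 10 genes.

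The membrane proteins were highest at 6 h of inhibitor. F3 encodes tissue factor, the cell-surface trigger of blood coagulation. Its levels were 65.1, 179.5, 46.6, 35.9 and 19.1 CPM, so that the 6 h library stood well above the other 4. CRIM1 encodes a membrane protein with cysteine-rich repeats that binds bone morphogenetic proteins. It was at 58.1, 104.8, 69.4, 56.5 and 43.7 CPM, and its span of 2.40-fold was the narrowest. The receptor tyrosine kinase gene AXL was close to the limit of these libraries, with 0.70, 1.32, 0.65, 0.66 and 0.47 CPM from 48 to 141 UMIs. AXL passed the 10 CPM minimum in no comparison, so it enters no count of genes below.

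The pair that encode intracellular proteins were high in both inhibitor libraries. ANKRD1 encodes a nuclear ankyrin-repeat protein first described in heart muscle. Its levels were 8.58 CPM at 0 h, 23.5 at 6 h of inhibitor, 5.37 in untreated cells at 72 h, 20.9 at 72 h of inhibitor and 2.49 in recovery. AMOTL2, the angiomotin-like scaffold gene introduced above, was at 46.0, 87.7, 49.0, 111.7 and 19.5 CPM. For ANKRD1 and AMOTL2 both inhibitor libraries were above both untreated libraries, with recovery lowest. Among the 10 genes, all but CCN2, EDN1 and AMOTL2 had their highest level at 6 h, and all 10 had their lowest level in recovery, although for CCN2 and AXL the interval of the lowest step held no difference.

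**Figure D1:**
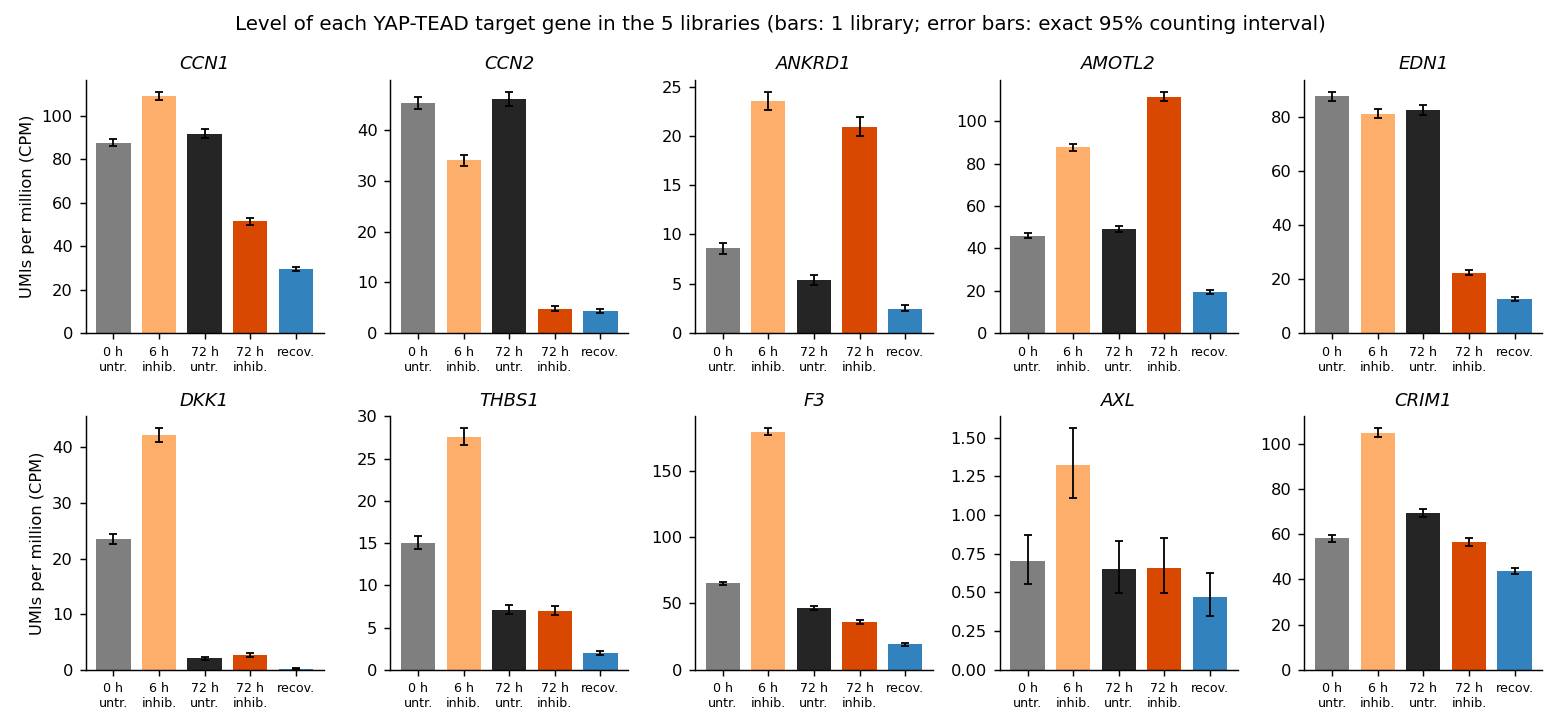
Level of each of the 10 genes in CPM, with 1 panel per gene and 1 bar per library. Error bars are exact 95% counting intervals, and the vertical scale differs between panels. CCN2 and EDN1 are low at 72 h of inhibitor and in recovery, whereas ANKRD1 and AMOTL2 are high in both inhibitor libraries and low in recovery.

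The first comparison asked what 72 h of the inhibitor did relative to 72 h without it. CCN2 was lower by 9.66-fold (8.72 to 10.7), EDN1 by 3.68-fold (3.50 to 3.88) and CCN1 by 1.78-fold (1.72 to 1.85). ANKRD1 was higher by 3.9-fold (3.53 to 4.32) and AMOTL2 by 2.28-fold (2.20 to 2.36). Of the 7 genes that passed the minimum, 5 were lower, where 61% of all genes were. With median-of-ratios scaling 5 of the 7 were lower, where 42.3% of all genes were. By 2-fold or more, 2 were higher and 2 lower. CCN2 and ANKRD1 passed the minimum only through the library in which they were higher, so passing and the size of their ratio are tied, here and in the comparisons that follow wherever that holds, and the counts are descriptions. Over all 9346 genes compared, 1.98% were at least 2-fold higher and 7.35% at least 2-fold lower. CCN2 was among the genes with the lowest ratios, with 0.0749% of all genes below it, and 99.8% of genes had ratios below that of ANKRD1.

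F3 was lower by 1.30-fold (1.24 to 1.36) and CRIM1 by 1.23-fold (1.18 to 1.28) at 72 h. Both directions turn when UMIs are taken per cell without scaling, with log2 differences of 0.08 for F3 and 0.17 for CRIM1 (cells of the 72 h inhibitor library held more UMIs). The 3 genes under the minimum were DKK1 at 1.25-fold higher (1.03 to 1.53), THBS1 at 1.01-fold lower (0.907 to 1.13) and AXL at 1.01-fold higher (0.690 to 1.48). The median log2 ratio of the 7 genes was -0.38, beside -0.14 over all genes. That median describes no single gene well, because the genes lay on both sides of 0. AMOTL2 was 0.95 higher on the log2 scale, just under 2-fold, when only cells low in cell cycle transcripts were used.

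When the 6 h inhibitor library was set against the 0 h untreated library, 7 of the 9 genes that passed the minimum were higher, where 60.2% of all genes were. F3 was higher by 2.76-fold (2.68 to 2.83) and ANKRD1 by 2.74-fold (2.55 to 2.96). AMOTL2 was higher by 1.91-fold (1.84 to 1.97), THBS1 by 1.83-fold (1.72 to 1.94), CRIM1 by 1.80-fold (1.75 to 1.86) and DKK1 by 1.79-fold (1.71 to 1.88). CCN1 was higher by 1.24-fold (1.21 to 1.28). The exceptions were CCN2, lower by 1.33-fold (1.28 to 1.39), and EDN1, lower by 1.08-fold (1.05 to 1.11), a direction that turns with UMIs per cell. By 2-fold or more, 2 were higher and 0 lower, against 1.99% and 0.132% of 9075 genes. With UMIs per cell, 6 of the 9 were at least 2-fold higher, against 4.58% of all genes. The median log2 ratio of the 9 genes was 0.85, beside 0.10 over all genes. Markers of basal epithelial cells, a state this line is known for, moved over the same step. All 6 (KRT5, KRT14, KRT6A, KRT16, KRT17 and EGFR) were higher at 6 h, 2 of them by at least 2-fold, with a median log2 ratio of 0.76. Their summed level was 3373 CPM at 0 h, 6009 at 6 h, 3112 in untreated cells at 72 h, 2988 at 72 h of inhibitor and 2055 in recovery. None was at 0 in any library. EGFR alone was at 2477, 4397, 2570, 2391 and 1428 CPM in that order, so the sum mostly follows EGFR and not the keratins. In recovery KRT5 was higher than at 72 h of inhibitor by 1.86-fold (1.81 to 1.91) and KRT14 by 3.80-fold (3.35 to 4.32). KRT17 was lower by 1.22-fold (1.20 to 1.24) and EGFR by 1.67-fold (1.66 to 1.69). The part of the basal markers in the results was not tested.

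Ratios at 6 h also went with the length of the gene on the genome. The protein-coding genes compared were put into 10 length groups of equal size, from group 1 (shortest) to group 10 (longest). The median log2 ratio was -0.20 in group 1, which holds CCN1, CCN2 and DKK1, and 0.48 in group 10, which holds CRIM1. ANKRD1 and EDN1 lay in group 2, with a median of -0.16, F3 and THBS1 in group 3, with a median of -0.08, and AMOTL2 in group 4, with a median of -0.02. Other comparisons, grouped in the same way, also differed between groups 1 and 10. For untreated cells at 72 h against 0 h the medians were -0.08 and 0.31. For recovery against untreated cells at 72 h they were -0.13 and -0.49, and for the inhibitor against no inhibitor at 72 h -0.23 and -0.31. The part of gene length in the 6 h ratio of CRIM1 or of any other gene was not tested.

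**Figure D2:**
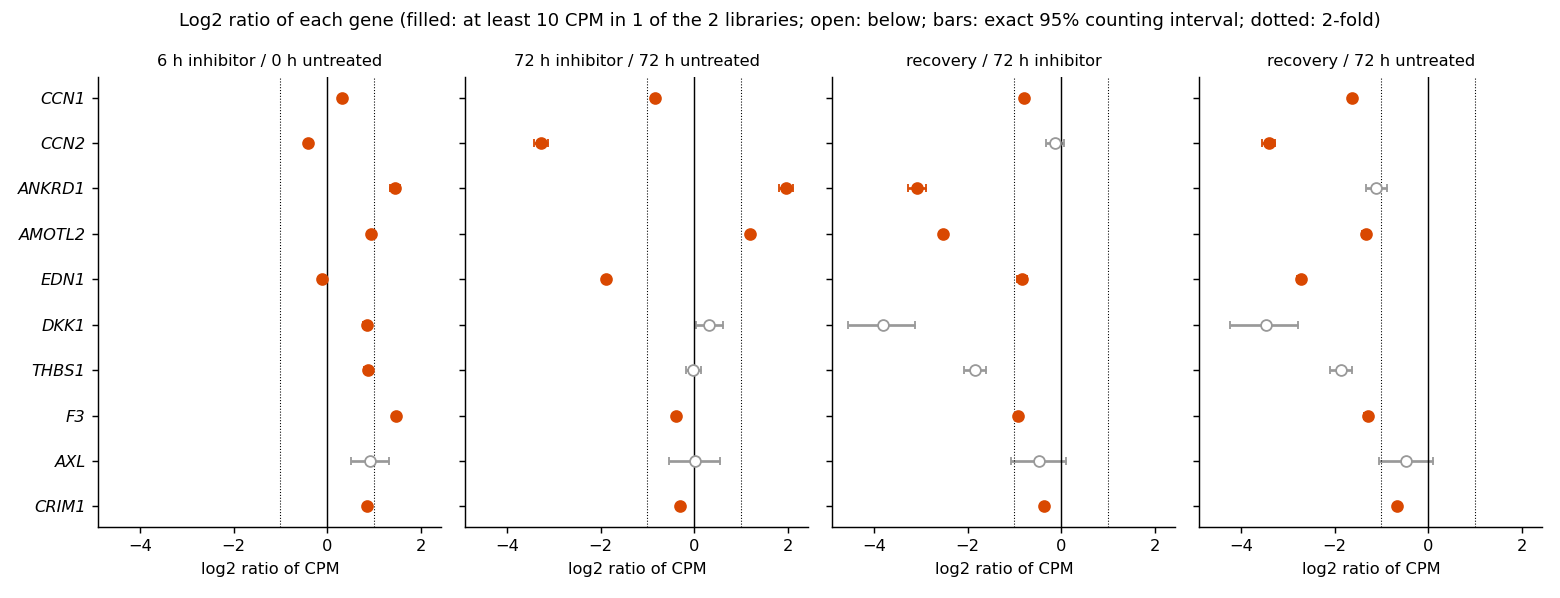
Log2 ratio of CPM (horizontal axis) for each gene in 4 comparisons, with exact 95% counting intervals as bars and dotted lines at 2-fold. Filled points are genes of at least 10 CPM in either library of the comparison and open points are the others. At 6 h only CCN2 and EDN1 lie left of 0, at 72 h CCN2 and EDN1 lie far left while ANKRD1 and AMOTL2 lie right, and in recovery all filled points lie left of 0.

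In recovery cells the genes were not at the levels of the 0 h or 72 h untreated libraries. The exception was AXL, whose interval against untreated cells at 72 h held no difference. Without an untreated match for recovery, time in culture and treatment history cannot be told apart in these comparisons. Against the 72 h inhibitor library, ANKRD1 was lower by 8.42-fold (7.38 to 9.65) and AMOTL2 by 5.73-fold (5.46 to 6.01), so both of the genes that had been higher under the inhibitor were lower. F3 was lower by 1.88-fold (1.78 to 1.99), EDN1 by 1.78-fold (1.66 to 1.91), CCN1 by 1.74-fold (1.66 to 1.83) and CRIM1 by 1.29-fold (1.24 to 1.35). CCN2 was lower by 1.10-fold (0.957 to 1.26) from a level already under the minimum, with an interval that held no difference. All 6 genes that passed the minimum were lower, where 50.6% of all genes were. Of the 6, 0 were at least 2-fold higher and 2 at least 2-fold lower, against 5.09% and 4.22% of 8943 genes. The median log2 ratio of the 6 genes was -0.87, beside -0.01 over all genes. Recovery cells held fewer UMIs, and with UMIs per cell all 10 genes were lower by more than 1.5 times the fold given here. CCN1 then came to -1.42 and CCN2 to -0.75 on the log2 scale, and 5 of the 6 were at least 2-fold lower, against 23.7% of all genes. Below the minimum, DKK1 was lower by 13.9-fold (8.70 to 23.6) and THBS1 by 3.60-fold (3.06 to 4.24).

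Against untreated cells at 72 h, all 6 genes that passed the minimum were lower in recovery, where 61.3% of all genes were. CCN2 was lower by 10.6-fold (9.61 to 11.7), EDN1 by 6.55-fold (6.18 to 6.96), CCN1 by 3.11-fold (2.98 to 3.24), AMOTL2 by 2.51-fold (2.38 to 2.65) and F3 by 2.45-fold (2.32 to 2.58). CRIM1 was lower by 1.59-fold (1.53 to 1.65). Thus 5 of the 6 were at least 2-fold lower and 0 at least 2-fold higher, against 11% and 4.52% of 9405 genes. The median log2 ratio of the 6 genes was -1.48, beside -0.17 over all genes. Below the minimum, DKK1 was lower by 11.1-fold (6.92 to 18.9), THBS1 by 3.65-fold (3.11 to 4.29) and ANKRD1 by 2.16-fold (1.85 to 2.52). The recovery comparisons share a library with each other and with the 72 h comparison, so they are not independent.

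The untreated libraries at 72 h and 0 h differed in some of the genes. Between untreated cells at 72 h and at 0 h, DKK1 was lower by 11.4-fold (9.83 to 13.2) and THBS1 by 2.12-fold (1.94 to 2.32). F3 was lower by 1.40-fold (1.34 to 1.45) and CRIM1 higher by 1.19-fold (1.15 to 1.24). CCN1, CCN2, AMOTL2 and EDN1 differed by at most 1.06-fold, and under another scaling CCN1, CCN2, AMOTL2 and CRIM1 change direction. Of the 8 genes that passed the minimum, 0 were at least 2-fold higher and 2 at least 2-fold lower, against 5.56% and 1.48% of 9303 genes. DKK1 and THBS1 passed only through the 0 h library, in which they were higher. ANKRD1, under the minimum in both libraries, was lower by 1.6-fold (1.43 to 1.78) at 72 h. Of the 6 basal epithelial markers 3 were at least 2-fold lower in untreated cells at 72 h than at 0 h, against 1.48% of all genes. KRT6A was lower by 12.6-fold (11.3 to 13.9), while EGFR was higher by 1.04-fold (1.03 to 1.04). The median log2 ratio of the 6 markers was -0.74, beside 0.10 over all genes. Ratios of DKK1, THBS1 and ANKRD1 therefore differed with the untreated library used. At 72 h of inhibitor DKK1 was lower by 9.08-fold (7.91 to 10.5) than at 0 h untreated, and THBS1 by 2.15-fold (1.96 to 2.36). ANKRD1 was higher by 2.44-fold (2.26 to 2.64) than at 0 h, and AMOTL2 by 2.43-fold (2.35 to 2.51). At 6 h of inhibitor DKK1 was higher by 20.4-fold (17.7 to 23.7) than in untreated cells at 72 h, and ANKRD1 by 4.38-fold (3.98 to 4.83).

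The genes that encode YAP, TAZ and the TEAD factors were read in the same libraries. YAP1 was at 77.1, 91.3, 74.6, 68.2 and 68.9 CPM, in the order 0 h untreated, 6 h inhibitor, 72 h untreated, 72 h inhibitor and recovery. WWTR1, which encodes TAZ, was at 70.2, 83.5, 98.6, 65.7 and 82.5 CPM, and TEAD1 at 62.2, 99.6, 61.3, 43.5 and 48.5 CPM. Of 9 such genes (YAP1, WWTR1, TEAD1 to TEAD4, VGLL1, VGLL3 and VGLL4) 8 passed the minimum at 72 h. All 8 were lower in the inhibitor library, where 61% of all genes were, and 2 of them by at least 2-fold, where 7.35% were. These were VGLL1, a TEAD co-factor, at 2.24-fold (2.18 to 2.31) and TEAD2 at 2.09-fold (1.91 to 2.29). The median log2 ratio of the 8 genes was -0.42, beside -0.14 over all genes. TEAD4 was lower by 1.06-fold (0.986 to 1.14), an interval that held no difference. With median-of-ratios scaling 6 of the 8 were lower, and with UMIs per cell 4 were. At 6 h 5 of 8 were higher, where 60.2% of all genes were, and 3 lower, none by 2-fold. TEAD1 was higher by 1.6-fold (1.55 to 1.65).

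Among 21 genes of the Hippo kinases and their upstream regulators, 19 passed the minimum at 72 h, of which 6 were higher and 13 lower, none by 2-fold, where 61% of all genes were lower. With median-of-ratios scaling 10 were higher and 9 lower. The largest ratios were those of the cadherin gene FAT1, lower by 1.68-fold (1.6 to 1.77), the scaffold gene WWC1, lower by 1.67-fold (1.64 to 1.70), and RASSF1, higher by 1.54-fold (1.44 to 1.65). At 6 h 16 of the 19 were higher, where 60.2% of all genes were, with a median log2 ratio of 0.47, led by the kinase genes STK3 at 1.73-fold (1.69 to 1.78) and LATS2 at 1.70-fold (1.6 to 1.80). LATS2 is itself known as a YAP target. In recovery RASSF1 reached 60.1 CPM, 2.53-fold (2.41 to 2.66) above the 72 h inhibitor library.

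A further 15 genes from YAP signatures were followed, of which LATS2 and PTPN14 are also among the Hippo regulators. At 6 h all 12 that passed the minimum were higher, with a median log2 ratio of 0.72, where 60.2% of all genes were higher. Ratios at 6 h went with gene length, as described above. The part of length in the 6 h ratios of these genes, the Hippo genes and the TEAD genes was not tested. The intervals of IGFBP3, at 1.01-fold (0.992 to 1.03), and FJX1, at 1.02-fold (0.983 to 1.07), held no difference, and with median-of-ratios scaling 9 of the 12 were higher. The stress-response gene GADD45A was higher by 2.63-fold (2.57 to 2.68), DOCK5 by 1.91-fold (1.85 to 1.98), ASAP1 by 1.81-fold (1.76 to 1.86) and TGFB2 by 1.77-fold (1.74 to 1.81). In the 72 h comparison 5 were higher and 7 lower, where 61% of all genes were lower. Their median log2 ratio was -0.13, beside -0.14 over all genes. GADD45A was higher by 2.26-fold (2.22 to 2.30) and IGFBP3, a carrier of insulin-like growth factors, by 1.95-fold (1.91 to 1.99), while DOCK5 was lower by 1.66-fold (1.58 to 1.74). Against untreated cells at 72 h, 10 of the 12 were lower in recovery, 5 of them by at least 2-fold, with a median of -0.90, where 61.3% of all genes were lower and 11% by at least 2-fold, with a median of -0.17. FJX1 was lower by 4.89-fold (4.43 to 5.40) and TGFB2 by 3.18-fold (3.08 to 3.29), and GADD45A was higher by 2.42-fold (2.38 to 2.46).

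Genes of related transcriptional programmes were read for comparison. Of 16 AP-1 and immediate early genes, 15 passed the minimum at 72 h, of which 13 were lower and 7 by at least 2-fold, with a median log2 ratio of -0.98, where 61% of all genes were lower and 7.35% by at least 2-fold, with a median of -0.14. The number lower was 11 under median-of-ratios scaling and 9 with UMIs per cell. FOS was lower by 6.98-fold (6.70 to 7.28), NR4A1 by 8.82-fold (8.15 to 9.56) and EGR1 by 4.81-fold (4.55 to 5.09). In recovery 14 of the 15 were higher than in the 72 h inhibitor library, 10 by at least 2-fold, with a median of 1.37, where 49.4% of all genes were higher. Over the same step none of the 6 YAP-TEAD targets above the minimum was higher. Of 16 genes of serum response factor and actin, 11 passed at 72 h and 9 were lower, where 61% of all genes were, with a median of -0.51, among them TPM4 at 3.34-fold (3.29 to 3.40) and VCL at 2.54-fold (2.47 to 2.62). Of 9 targets of TGF-beta, 6 passed and 4 were lower, where 61% of all genes were. By at least 2-fold 3 of the 6 were lower, where 7.35% of all genes were. The median log2 ratio of the 6 was -0.67, beside -0.14 over all genes. Those lower included ID1 at 2.16-fold (2.12 to 2.21) and ID3 at 2.08-fold (2.01 to 2.14). BHLHE40 and PMEPA1 were higher, by 1.74-fold (1.70 to 1.79) and 1.08-fold (1.04 to 1.12). With UMIs per cell 3 of the 6 were lower.

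Single cells were compared after each was thinned at random to 5000 UMIs, so that depth did not set the share of cells with a UMI. CCN2 was seen in 19.5% of untreated cells at 72 h (18.1 to 21) and in 1.98% of cells given the inhibitor for 72 h (1.40 to 2.72). EDN1 was seen in 28.2% (26.5 to 29.9) and 10.1% (8.79 to 11.6) of those cells. AMOTL2 went the other way, from 19.9% (18.4 to 21.4) to 37.0% (34.8 to 39.2), and so did ANKRD1, from 2.39% (1.87 to 3.02) to 7.66% (6.49 to 8.96). F3 was seen in 48.2% of cells at 6 h (46.4 to 50), against 22.5% at 0 h (21.2 to 23.9). In recovery cells AMOTL2 was seen in 9.62% (8.66 to 10.6) and DKK1 in 0.144% (0.0469 to 0.337). The line offers no cell type that lacks these genes, so the part of free RNA in the low shares was not measured.

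**Figure D3:**
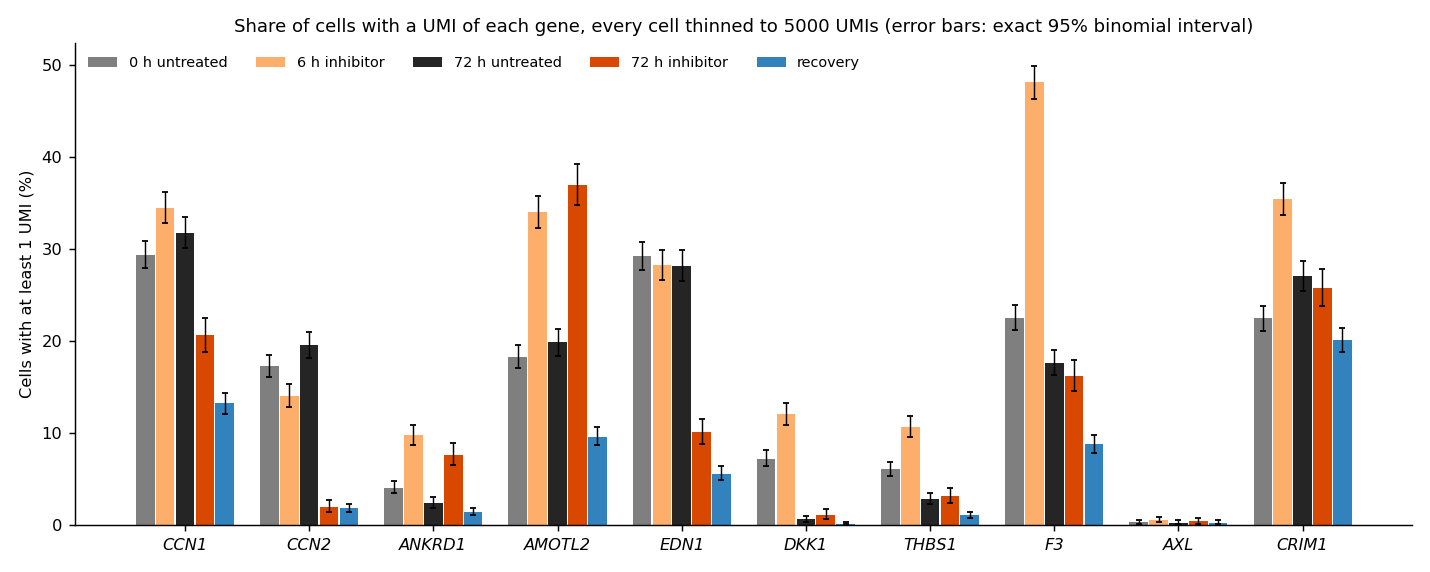
Share of cells with at least 1 UMI of each gene, in percent, after thinning every cell to 5000 UMIs, with 1 bar per library and exact 95% binomial intervals. F3 reaches 48.2% at 6 h, CCN2 is at 1.98% and 1.82% at 72 h of inhibitor and in recovery, and AMOTL2 is at 37.0% at 72 h of inhibitor.

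A cell showed on average 1.57 of the 10 genes at 0 h, 2.28 at 6 h, 1.5 in untreated cells at 72 h, 1.24 at 72 h of inhibitor and 0.619 in recovery. None of the 10 was seen in 24.2%, 11.8%, 22.7%, 31.3% and 53.8% of those cells. Recovery cells were thus the library with fewest of the genes per cell, and the order of the 5 libraries was the same after thinning to 10000 UMIs.

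Some of the genes were spread less evenly over cells than counting alone gives. With counting alone the variance of UMIs per cell would equal the mean, a ratio of 1, and the median ratio over all genes of at least 10 CPM was 1.04 to 1.07. DKK1 had a ratio of 2.26 at 0 h and 2.41 at 6 h, above 99.2% and 99.4% of all genes. ANKRD1 had 2.07 at 6 h and 2.32 at 72 h of inhibitor, while AMOTL2 had 1.12 and 1.31, above 84.7% and 91.7% of all genes. ANKRD1 also had 1.25 at 0 h, 1.57 in untreated cells at 72 h and 2.92 in recovery. Its uneven spread was thus not particular to the inhibitor libraries. AMOTL2 and ANKRD1 were both higher under the inhibitor, with the spread of ANKRD1 more uneven than that of AMOTL2. CCN1 had ratios between 1.31 and 1.73 in the 5 libraries.

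Across the cells of 1 library, the genes were only weakly correlated with each other. Over the 45 pairs, the mean Pearson r of log(1 + UMIs) was 0.061 at 0 h, 0.080 at 6 h, 0.048 in untreated cells at 72 h, 0.055 at 72 h of inhibitor and 0.022 in recovery. These cells share library, depth and a low number of UMIs per gene, and correlations of this size in sparse counts are no finding. The highest value was 0.172, for CCN1 with CCN2 at 6 h. With 10000 UMIs per cell it was 0.273, and the pair ANKRD1 and F3 reached 0.238 at 72 h of inhibitor. Cells with a CCN2 UMI at 6 h held on average 0.914 CCN1 UMIs, against 0.473 in cells without. At 72 h of inhibitor the 37 cells with a CCN2 UMI held 0.622 CCN1 UMIs, against 0.280 in the others.

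**Figure D4:**
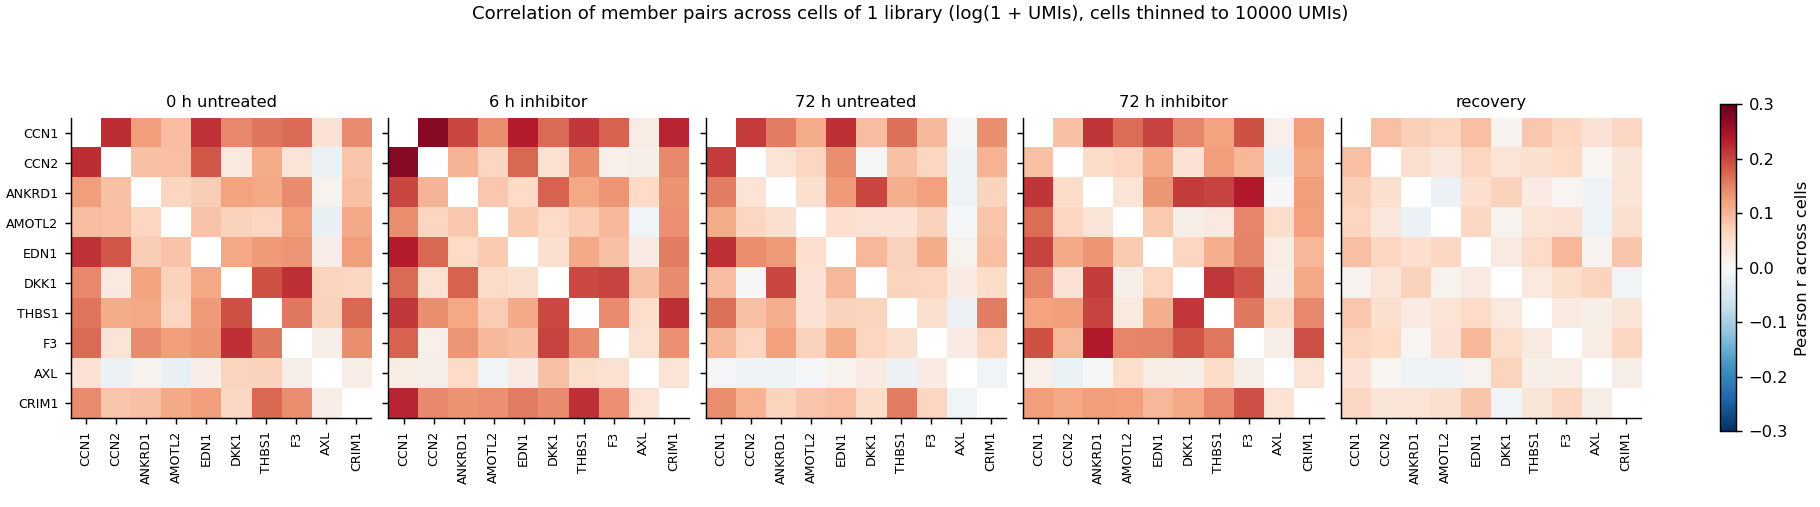
Pearson r between pairs of the 10 genes across the cells of each library, with cells thinned to 10000 UMIs and 1 matrix per library. Colours run from -0.3 (blue) to 0.3 (red). The darkest square is CCN1 with CCN2 at 6 h, at 0.273, and recovery is the palest matrix, with a mean of 0.042.

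The genes outside the set that went most with the summed UMIs of the 10 across cells were TGFB2 (mean r of 0.264 over the 5 libraries), EGFR (0.241), PTPRJ (0.178), PLK2 (0.175) and WWC1 (0.173), of 4976 genes compared. TGFB2 and WWC1 were also in the YAP signature and Hippo lists. By level over the 5 libraries, the genes closest to CCN2 were HECW2, SLC6A14 and CHAC2, with root mean square differences of 0.37, 0.43 and 0.51 in centred log2 CPM. HECW2 was at 44.9, 42.2, 32.8, 7.31 and 4.55 CPM in the order of libraries given for YAP1. Among those closest to CCN1 were ITGA9-AS1 at 0.0092 and DHRS7B at 0.069. With 5 libraries and 7545 genes compared, near matches of this kind describe these libraries only.

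The libraries differed in their shares of cells with low or high cell cycle transcripts, so the genes were also read within such classes, which rest on transcripts alone and do not count cycling cells. Cells with S phase and G2/M transcripts both below the medians of the 0 h library made up 27.0%, 30.2%, 46.1%, 73.2% and 41.4% of the 5 libraries. Within these cells CCN2 was at 58.1 CPM in untreated cells at 72 h and 5.17 CPM at 72 h of inhibitor. In cells with high G2/M transcripts it was at 35.6 and 5.59 CPM. CCN2 was thus lower under the inhibitor in both classes. AMOTL2 at 72 h of inhibitor was at 102 CPM in the low class and 170 CPM in the G2/M class, 1.67-fold higher in the latter (1.54 to 1.80). In untreated cells at 72 h the same ratio for AMOTL2 was 0.803 (0.732 to 0.881). F3 had a ratio of 2.05 (1.79 to 2.34) at 72 h of inhibitor and 0.796 (0.724 to 0.874) in untreated cells at 72 h. EDN1 was lower in G2/M-high cells in both, with 0.581 (0.441 to 0.752) and 0.657 (0.611 to 0.705), and in recovery its ratio was 0.400 (0.330 to 0.481). Cells high in S phase transcripts numbered 5 at 72 h of inhibitor and 2 in recovery, too few to give values.

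**Figure D5:**
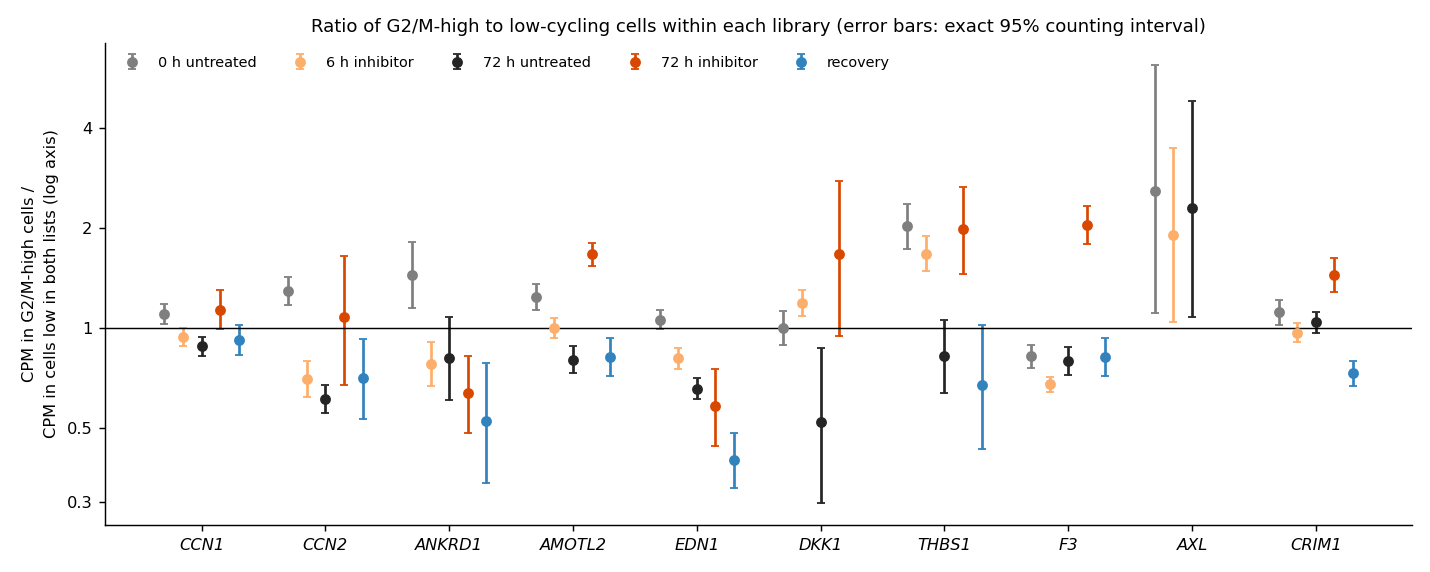
CPM in G2/M-high cells divided by CPM in cells low in both cell cycle lists, within each library, on a log axis, with exact 95% counting intervals. At 72 h of inhibitor AMOTL2, F3, THBS1 and CRIM1 lie above 1 and EDN1 and ANKRD1 below it, and EDN1 in recovery is lowest, at 0.400.

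Depth within a library went with some of the levels. At 72 h of inhibitor ANKRD1 was at 30.5, 25.7, 22.1 and 15.4 CPM in 4 equal groups of cells, from those with fewest UMIs to those with most, and CCN2 at 7.0, 5.1, 4.3 and 4.3 CPM. AMOTL2 in the same cells was at 100.2, 108.4, 116.5 and 112.7 CPM. In all 4 groups ANKRD1 and AMOTL2 lay above every group of untreated cells at 72 h, which reached at most 6.9 and 51.9 CPM. CCN2 in all 4 groups lay below the lowest untreated group, at 39.7 CPM. The choice of scaling also moved all genes together. Median-of-ratios size factors shifted the median log2 ratio of all genes by 0.23 at 72 h, -0.17 at 6 h and 0.26 for recovery against untreated cells at 72 h. Beside those shifts CCN2 and EDN1 stayed lower, and ANKRD1 and AMOTL2 higher, in the 72 h comparison under each scaling tried.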

How the data were processed

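The deposited files hold raw UMI counts per gene and cell barcode for 5 libraries. Per the submitters' processing notes and the file headers, the authors made these counts with Cell Ranger 7.1.0 on GRCh38, from 10x Genomics 3′ v3.1 libraries of trypsin-dissociated cells. No source used here gives the annotation release or the strand and intron settings. Cells with at least 1000 genes and at most 20% mitochondrial UMIs were kept. For each library the UMIs of kept cells were added up and expressed as CPM. Ratios have exact conditional (Clopper-Pearson) 95% intervals, which cover counting error only, and a sum of 0 was set to a floor of 3 UMIs. Cells were thinned to 5000 UMIs for shares, per-cell values and cell cycle classes, and between 5 and 75 cells per library held fewer UMIs and were left out. No doublet caller was run, and the 5% of cells with most UMIs were left out as an alternative. High cell cycle classes began at the 90th percentile of the 0 h library. Evenness over cells was set beside all genes, not beside genes of like level as first planned. Tested on simulated data of 9092 genes for the 72 h comparison, the ratio script put 200 of 200 changed genes in the right direction, and 96.0% of intervals held the true ratio. The simulated counts held counting error only, which is the error the intervals assume. They check the calculation and do not show how the intervals behave under variation between cells or cultures. The 10 genes and the pathway lists were chosen with earlier results of these data known. All 10 genes are described, with at most 4 genes of largest ratio per pathway list and, outside that rule, YAP1 as the gene of YAP itself, named after its values were seen. Analyses used Python, numpy and scipy. Some genes that these rules name are not reported here.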

Additional observations from a re-analysis of the deposited data

Results flagged for a closer look

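In 3 genes that passed the minimum in both comparisons, with intervals that left out no difference, the log2 ratio at 72 h (inhibitor over untreated at 72 h) and at 6 h (inhibitor over untreated at 0 h) had opposite signs, and this difference was not tested, since each condition was 1 library. THBS1, at 0.87 and -0.02, was under the minimum at 72 h. F3 was 1.46 higher at 6 h and -0.38 at 72 h, a difference of -1.84. CCN1 was 0.32 higher at 6 h and -0.84 at 72 h, a difference of -1.15. CRIM1 was 0.85 higher at 6 h and -0.30 at 72 h, also a difference of -1.15. With UMIs per cell and no scaling, the 72 h values of F3 and CRIM1 became 0.08 and 0.17, so their signs were then the same at both times. The comparisons use different untreated libraries. Between these F3 was lower by 1.40-fold and CRIM1 higher by 1.19-fold (1.15 to 1.24) at 72 h. Against the 0 h untreated library, CRIM1 at 72 h of inhibitor was lower by 1.03-fold (0.991 to 1.07), an interval that held no difference. In the same comparison F3 was lower by 1.81-fold (1.74 to 1.89) and CCN1 by 1.70-fold (1.64 to 1.76).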

How the results depend on the processing

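Alternatives are those set at the start, except UMIs per cell without scaling and cells of at least 20000 UMIs with at most 10% mitochondrial UMIs, which were chosen after seeing the data. Of 580 values of single genes under an alternative, 553 kept their sign, 27 did not and 22 moved by over 1.5-fold. At 72 h the genes at least 2-fold higher went from 2 to 1 in cells low in cell cycle transcripts and to 1 with a minimum of 50 CPM, and those lower from 2 to 1 with 50 CPM and to 4 against the other untreated library, where 10.6% of all genes were lower by 2-fold. At 6 h the genes at least 2-fold higher went from 2 to 6 with UMIs per cell, to 1 with 50 CPM and to 4 against the other untreated library, where 1.95% of all genes were higher by 2-fold. For recovery against the 72 h inhibitor, those lower went from 2 to 5 with UMIs per cell, to 1 with 50 CPM and to 4 with no minimum above 3 UMIs. For recovery against untreated cells at 72 h they went from 5 to 2 with 50 CPM and to 8 with no minimum. For untreated cells at 72 h against 0 h they went from 2 to 1 with equal weight per cell, to 1 in cells low in cell cycle transcripts and to 0 with 50 CPM. A higher minimum leaves fewer genes to count and no minimum leaves more; the cause of the other moves was not tested. The mean number of genes seen per cell, in the order 0 h untreated, 6 h inhibitor, 72 h untreated, 72 h inhibitor and recovery, was 2.57, 3.43, 2.49, 2.0 and 1.09 at 10000 UMIs and 4.44, 5.62, 4.24, 3.88 and 2.22 without thinning, since more UMIs show more genes. The mean r over 45 pairs at 10000 UMIs was 0.103, 0.117, 0.077, 0.108 and 0.042. No paired analysis was possible because each group was 1 library. Depth limits AXL in all libraries and DKK1 in recovery, where 48 to 141 and 19 UMIs were counted.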
